A study of Mus musculus with 12 samples.

Results

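Messenger RNA in exosomes of TGF-β2-treated cardiomyocytes was compared with that in exosomes of untreated cardiomyocytes on 8 microarrays. The arrays were those titled for TGF-β2 (4 samples) and for control (4 samples) in a series of 12 arrays. All exosomes came from HL-1 cells, an immortalised mouse atrial cardiomyocyte line that keeps contracting in culture, so that a single cell line stands for the cardiomyocyte here. Cells of the treated group received 10 ng/mL TGF-β2 and control cells received no growth factor, and both were kept in medium without serum for 23 h before the medium was collected. Each sample was prepared from its own culture flask, and its whole RNA was amplified and hybridised to 1 array of the Illumina MouseRef-8 type. The arrays lay on 2 chips. Chip 1 carried control samples 2 and 3 and TGF-β2 samples 1 and 4, and chip 2 carried control samples 1 and 4 and TGF-β2 samples 2 and 3. A transcript was called detected on an array when its detection p-value, the share of that array's negative control beads that were brighter, was under 0.01. Of 25696 probes, 829 were detected on at least 3 of the 8 arrays and were tested. They represented 725 of the 16593 named genes on the array.

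TGF-β2 is a secreted cytokine of the transforming growth factor family. It binds a complex of type II and type I receptor kinases, which phosphorylate SMAD2 and SMAD3, and these enter the nucleus with SMAD4 and change transcription of target genes. The receptors also feed MAP kinase branches that do not use SMAD proteins. In the heart TGF-β2 is known for its role in valve development, in fibrosis and in hypertrophic remodelling. Exosomes are small vesicles formed inside multivesicular bodies and released by fusion of these with the plasma membrane, and the messenger RNA they carry was the material on the arrays.

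None of the 829 probes passed the test of a difference between exosomes of TGF-β2-treated cells and control exosomes. The moderated test of limma, with the chip as a block, called 0 probes at an adjusted p under 0.05 (0%), and the lowest adjusted p was 0.996. At an unadjusted p under 0.05, 8 probes were higher (0.965% of those tested) and 5 were lower (0.603%) in TGF-β2 exosomes. The median difference over all probes was 0.07 on the log2 scale, with 483 positive and 343 negative differences. Single differences ran from -1.24 to 1.42. The median standard error was 0.34, and the 95% confidence interval of 372 probes lay wholly within a 2-fold change in either direction. Of these 372 probes, 349 were detected on fewer than 8 arrays. Near the detection limit the offset of 16 pulls folds toward 1, so that such an interval does not exclude a 2-fold difference in RNA. For the probes outside the 372 a 2-fold difference was not excluded by these arrays either.

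The number of transcripts detected per array varied more within the groups than between them. In control exosomes 463, 820, 1152 and 527 probes were detected in samples 1 to 4. In TGF-β2 exosomes 564, 989, 1506 and 518 probes were detected. The ranges of the groups overlapped, and the means were 740.5 ± 315.3 for control and 894.2 ± 459.7 for TGF-β2 (SD, 4 arrays each). The difference of 153.8 probes gave a two-sided p of 0.6 by exact permutation of the 70 possible groupings, which can give no p under 0.0286. On chip 1 the TGF-β2 arrays detected fewer probes than the control arrays, by 445, and on chip 2 they detected 752.5 more. Samples 2 and 3 of both groups had the highest numbers (mean 1117) and samples 1 and 4 the lowest (mean 518). Fewer vesicles in a sample and less RNA per vesicle cannot be told apart in these measurements. At the detection threshold, about 257 probes per array would be called even without signal.

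**Figure D1:**
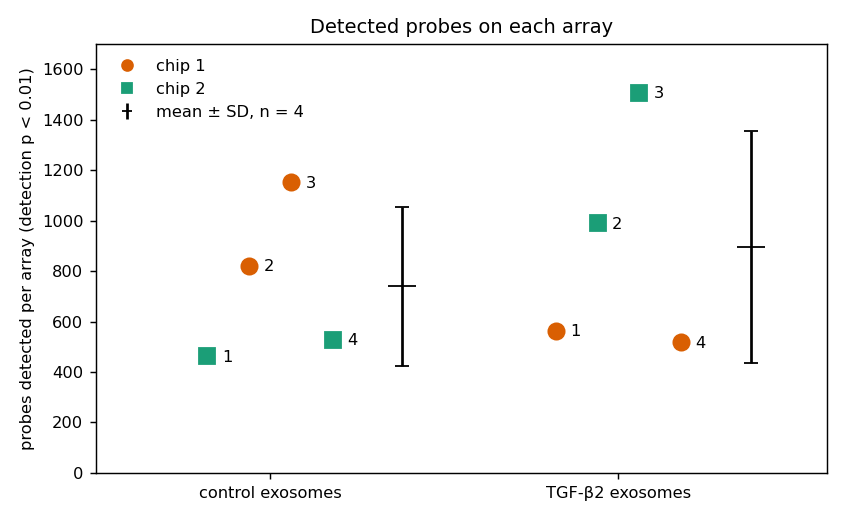
Number of probes detected on each array (vertical axis, detection p under 0.01) in control and TGF-β2 exosomes. Points are arrays with their sample number, colour and shape give the chip, and bars give the mean ± SD. The chip 1 arrays are the 2 highest controls (820 and 1152) and the 2 lowest TGF-β2 arrays (564 and 518).

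Control sample 1 stood apart from the other arrays. Its median correlation with them over the tested probes was 0.511, while the other 7 arrays had medians between 0.77 and 0.874. The spread among control arrays for transcripts seen on all arrays was a median SD of 0.62, and it was 0.39 when control sample 1 was left out, close to 0.37 among TGF-β2 arrays. Where leaving it out turned the difference of a named probe or moved it by over 1.5 times, the value without it is therefore given as well. Without it limma again called 0 probes, with 46 at an unadjusted p under 0.05.

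The list of transcripts present on every array of a group was longer for TGF-β2 than for control. A total of 179 probes (155 genes) were detected on all 4 TGF-β2 arrays and 92 probes (85 genes) on all 4 control arrays. The lists shared 73 probes (67 genes), which were 40.8% of the TGF-β2 list and 79.3% of the control list. The remaining 106 probes of the TGF-β2 list were mostly present in control exosomes as well, since 79 of them were detected on 3 control arrays, 22 on 2, 4 on 1 and 1 on 0. Of the 19 probes on the control list alone, 8 were detected on 3 TGF-β2 arrays, 10 on 2 and 1 on 1. The length of the control list rested on control sample 1. Without it, 262 probes were detected on the other control arrays. That count asks for 1 array fewer than the TGF-β2 list does. With 1 TGF-β2 array left out, the TGF-β2 list held 191 to 249 probes.

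Transcripts of the TGF-β pathway were detected at a mean of 10.9% per TGF-β2 array and 12.5% per control array for the ligand list, 11.4% in each group for receptors, 8.82% in each group for SMADs and their regulators, and 23.7% and 17.1% for the kinases of other branches, beside 4.74% and 3.96% of all named genes. Probes for the ligands Tgfb1, Tgfb2 and Tgfb3 were detected on 0 of 8 arrays, and so were those for the type II receptor Tgfbr2, the coreceptor Tgfbr3, and the receptor-activated SMADs Smad2 and Smad3. Among 16 genes of ligands, latency and activation, 7 were detected on at least 1 array and 2 were tested. Ltbp4, which binds latent TGF-β in the matrix, was detected on 3 arrays of each group and differed by 0.03 ± 0.38 (log2 difference ± SE), or by 0.34 without control sample 1 and -0.07 with median scaling. Itgb6, a subunit of an integrin that activates latent TGF-β, was detected on 1 TGF-β2 and 2 control arrays, with a difference of 0.21 ± 0.29, or of -0.11 with median scaling.

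The receptors and SMADs that could be tested differed by less than their errors or little more. Of 11 receptor genes, 3 were detected and 2 were tested, with 1 positive and 1 negative difference. The type I receptor Tgfbr1 had log2 intensities of 4.91, 5.36, 5.67 and 5.18 in control samples 1 to 4 and 5.16, 6.11, 6.78 and 4.82 in TGF-β2 samples 1 to 4. It was detected on 2 arrays of each group, the ranges overlapped, and the difference was 0.44 ± 0.43, with unadjusted p = 0.339 and adjusted p = 0.996, and it was 0.19 without control sample 1. The 3 other probes of Tgfbr1 were detected on 0 arrays. The activin receptor Acvr2b was detected on 3 control and 2 TGF-β2 arrays and differed by -0.64 ± 0.57, or by -1.15 without control sample 1. Of 17 genes for SMADs and their regulators, 5 were detected and 2 were tested. Smad4, the common partner of the receptor-activated SMADs, differed by 0.03 ± 0.47, or by -0.22 without control sample 1.

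Smad5, a SMAD of the bone morphogenetic protein branch, had the smallest interaction p of all probes. Its log2 intensity was 4.87, 6.32, 6.05 and 5.08 in control samples 1 to 4 and 4.73, 5.87, 6.01 and 4.66 in TGF-β2 samples 1 to 4. Samples 2 and 3 were high and samples 1 and 4 were low in both groups. On chip 1 the TGF-β2 arrays were lower by a log2 difference of -1.49 and on chip 2 they were higher by 0.97, and the change between chips of 2.46 ± 0.32 had unadjusted p = 0.00026 and adjusted p = 0.121. Over both chips Smad5 differed by -0.26 ± 0.49, and by -0.55 without control sample 1. A second Smad5 probe was detected on 2 TGF-β2 and 0 control arrays and was below the number of arrays needed for the test.

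The kinases of the branches without SMAD proteins included the TGF-β pathway gene with the lowest unadjusted p, Mapk9. Of 19 genes 9 were detected, and of 6 tested probes 3 were higher and 3 lower, with a median of 0.02 against 0.07 over all probes. Mapk9 encodes the stress-activated kinase JNK2. The values on the log2 scale were 4.69, 5.12, 6.08 and 4.83 in control samples 1 to 4 and 6.16, 5.86, 6.16 and 5.72 in TGF-β2 samples 1 to 4. It was detected on all 4 TGF-β2 arrays and on 1 control array, and control sample 3 lay within the TGF-β2 range. Mapk9 thus passed the filter only through the TGF-β2 group, so that its difference and p follow in part from the filter. The difference was 0.80 ± 0.31 (95% interval 0.06 to 1.53), with unadjusted p = 0.0369 and adjusted p = 0.996. Within chip 1 it amounted to 0.34, within chip 2 to 1.25. Pik3r1, the regulatory subunit of phosphoinositide 3-kinase, was measured by 2 probes with differences of -0.99 ± 0.70 and -0.97 ± 0.81. Without control sample 1 they were -1.54 and -1.79. Both probes were lower in TGF-β2 exosomes on chip 1 (-2.16 and -2.53) and slightly higher on chip 2 (0.18 and 0.58). Mapk14, the p38α kinase, differed by 0.04 ± 0.27, or by -0.16 without control sample 1. Tab2, an adaptor of the kinase TAK1, was detected on 2 TGF-β2 and 0 control arrays, too few for the test.

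Of 35 genes known to respond to TGF-β, 7 were detected on at least 1 array and 2 were tested, by 3 probes. Acta2, the smooth muscle α-actin that marks myofibroblasts, was the response gene detected on all 8 arrays. Its log2 intensity was 7.25, 7.66, 7.63 and 7.80 in control samples 1 to 4 and 7.90, 7.59, 7.48 and 8.37 in TGF-β2 samples 1 to 4. TGF-β2 samples 1 and 4 were the highest of the 8 and the groups overlapped. The difference was 0.25 ± 0.23 (95% interval -0.29 to 0.79), with adjusted p = 0.996, and a second probe, detected on 5 arrays, differed by 0.14 ± 0.44. The other 2 Acta2 probes were detected on 0 arrays. The early response gene Klf10 varied widely, with 8.98 and 7.54 in control samples 1 and 4, 4.77 and 5.004 in control samples 2 and 3, and 5.10, 6.04, 6.0 and 7.48 in TGF-β2 samples 1 to 4. Its difference was -0.42 ± 0.87, and it was 0.23 without control sample 1 and 0.38 with median scaling.

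Some further genes were fixed by name and looked up. Nfat5, a transcription factor of the osmotic stress response, was measured by 3 probes, of which 1 was tested. It was detected on 2 arrays of each group with a difference of 0.51 ± 0.51, and TGF-β2 sample 1 alone was high, at 7.54 against 4.84 to 5.86 on the other 7 arrays. The 3 probes of the histone deacetylase Hdac5 were detected on 0 arrays. Transcripts of Tsg101, a protein of the sorting machinery of multivesicular bodies, and of Hspa5, a chaperone of the endoplasmic reticulum, were also detected on 0 arrays. The exosome marker Cd63 was detected by 1 of its 3 probes on 1 TGF-β2 array.

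Promoter sequence is shown for Mapk9 and Acta2, the TGF-β pathway and response genes with the most detections in TGF-β2 exosomes, and for Appbp2, whose difference had the smallest p of all probes. RefSeq promoters (GRCm38.p6) were found for 3 of 6 genes looked up, and the 250 bases before the annotated start are given on the gene's strand. Capitals mark CAGAC or its reverse complement GTCTG, the short element to which SMAD3 and SMAD4 bind. Neither motif overlaps the other. At least 1 match was present in 42.2% of 32851 promoters of this length and at least 3 matches in 2.11%. A match is a description of the letters, not a binding site.
Acta2, chr19:34255374-34255623, minus strand, 1 match: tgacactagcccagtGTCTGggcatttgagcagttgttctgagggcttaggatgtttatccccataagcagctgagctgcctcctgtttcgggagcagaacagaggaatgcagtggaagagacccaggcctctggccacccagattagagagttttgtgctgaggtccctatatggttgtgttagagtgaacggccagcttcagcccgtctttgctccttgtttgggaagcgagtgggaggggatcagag
Mapk9, chr11:49846501-49846750, plus strand, 3 matches: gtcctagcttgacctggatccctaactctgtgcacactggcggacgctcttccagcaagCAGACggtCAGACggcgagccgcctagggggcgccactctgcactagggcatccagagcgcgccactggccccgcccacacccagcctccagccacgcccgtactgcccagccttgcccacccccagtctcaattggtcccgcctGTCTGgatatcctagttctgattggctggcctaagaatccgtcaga
Appbp2, chr11:85235121-85235370, minus strand, 1 match: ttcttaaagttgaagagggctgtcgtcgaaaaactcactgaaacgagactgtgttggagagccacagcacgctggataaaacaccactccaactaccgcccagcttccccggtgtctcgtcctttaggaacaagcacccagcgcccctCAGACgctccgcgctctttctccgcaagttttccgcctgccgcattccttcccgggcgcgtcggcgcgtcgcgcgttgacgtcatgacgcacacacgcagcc

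Among all transcripts, Appbp2 had the smallest unadjusted p. It encodes a protein that binds the cytoplasmic tail of the amyloid precursor protein and takes part in its transport. The log2 intensity was 6.71, 6.27, 6.18 and 6.03 in control samples 1 to 4 and 4.81, 5.45, 5.92 and 4.88 in TGF-β2 samples 1 to 4. All control arrays lay above all TGF-β2 arrays, and the transcript was detected on 4 control and 2 TGF-β2 arrays. The difference was -1.04 ± 0.26 (95% interval -1.65 to -0.42), with unadjusted p = 0.00496 and adjusted p = 0.996. Within chip 1 it was larger (-1.39) than within chip 2 (-0.69). Leaving out control sample 1 gave -0.97, and the difference was -0.41 with median scaling in place of quantile normalization.

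Eef1a2, the muscle and nerve form of the elongation factor that brings aminoacyl-tRNA to the ribosome, was the other transcript whose TGF-β2 arrays all lay below the control arrays. Such a pattern was seen in 2 of 829 probes (0.241%). Both were detected on 4 control and 2 TGF-β2 arrays, and the TGF-β2 arrays alone would not have passed them through the filter. The lack of overlap thus follows in part from the filter. The log2 intensity of Eef1a2 was 5.54, 7.06, 5.85 and 5.59 in control samples 1 to 4. In TGF-β2 samples 1 to 4 it was 4.87, 5.16, 5.21 and 4.998. Control sample 2 was far above the rest. The difference was -0.95 ± 0.35 with adjusted p = 0.996, and it was -0.60 without control sample 2.

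The other lower transcripts with the smallest p were Reep1, Nceh1, Rps9, Lypla2, Rcan3, Purb, Chtop and Lgr5, with log2 differences from -1.24 to -0.54. Reep1 shapes the tubular endoplasmic reticulum, and its difference was -0.64 ± 0.24, which was -0.62 on chip 1, -0.66 on chip 2 and -0.18 with median scaling. Nceh1, a hydrolase of neutral cholesterol ester, differed by -0.58 ± 0.22, and by 0.19 in the opposite direction with median scaling. That scaling gave -0.23 for Rps9, -0.25 for Lypla2, -0.42 for Rcan3 and -0.20 for Lgr5, and without control sample 1 the difference of Lgr5 was -0.33. Purb, a single-strand DNA binding repressor of α-actin and myosin heavy chain genes in muscle, had the most negative difference of a transcript present on all 8 arrays. Purb intensities (log2) were 9.33, 8.56, 7.70 and 9.26 in control samples 1 to 4 and 8.79, 7.05, 7.34 and 6.71 in TGF-β2 samples 1 to 4. TGF-β2 sample 1 lay among the control values, and the difference of -1.24 ± 0.55 was made up of -0.38 within chip 1 and -2.10 within chip 2, and leaving out TGF-β2 sample 1 gave -1.83.

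Other probes of the same gene did not always go the same way. Rcan3, an inhibitor of calcineurin, was detected on all 8 arrays by 2 probes, with differences of -0.99 ± 0.43 and 0.19 ± 0.39, the latter -0.16 without control sample 1. Chtop, a chromatin and mRNA export factor, had differences of -0.54 ± 0.25 and 0.58 ± 0.67, and control sample 1 was the highest control array for the former (8.79) and the lowest for the latter (4.96). Without this sample the difference of the latter was -0.18. Of 42 genes with several tested probes, 26 had differences of the same sign and 16 had opposite signs.

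Among the higher transcripts with the smallest p, Prdx4 had the largest difference. It encodes a peroxiredoxin of the endoplasmic reticulum that removes hydrogen peroxide. The log2 intensity was 4.74, 6.66, 6.20 and 6.77 in control samples 1 to 4 and 7.61, 7.25, 6.23 and 7.63 in TGF-β2 samples 1 to 4. It was detected on 4 TGF-β2 and 3 control arrays, and TGF-β2 sample 3 lay within the control range. The difference was 1.09 ± 0.46 with unadjusted p = 0.0503 and adjusted p = 0.996, alike on chip 1 (1.19) and chip 2 (0.99), and it was 0.70 without control sample 1. Ndufv1, a core subunit of respiratory complex I, differed by 0.56 ± 0.22 and was also higher on both chips (0.70 and 0.43).

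All TGF-β2 arrays lay above all control arrays for 2 of 829 probes (0.241%), Ube2b and Wdr13. Both were detected on 3 TGF-β2 and 0 control arrays. They passed the filter only through the group where they were high, so that the lack of overlap follows in part from the filter. Only a lower bound of the observed fold can be given. Here the control arrays were set to their lowest detected level where the transcript lay below it. Ube2b, a ubiquitin-conjugating enzyme of DNA repair and spermatogenesis, was at least 1.18-fold higher, with control values of 4.79, 4.80, 4.97 and 4.95 and TGF-β2 values of 5.40, 5.07, 5.18 and 6.26 on the log2 scale. Wdr13, a WD-repeat protein, was at least 1.17-fold higher, and TGF-β2 sample 4 alone was clearly above the others (6.24 against 5.15 to 5.24). The fit gave adjusted p = 0.996 for each. The confidence intervals of the log2 differences included 0, at -0.026 to 1.228 for Ube2b and -0.095 to 1.204 for Wdr13.

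Of 829 tested probes, those present on at least 3 more arrays of one group than of the other numbered 9 for TGF-β2 and 1 for control. Detection on all 4 arrays was uneven in the same direction, with 179 probes for TGF-β2 and 92 for control. When 3 of 4 arrays were enough, the numbers were 335 and 302. Without control sample 1 the control number was 262, beside 191 to 249 for TGF-β2 with 1 of its arrays left out. The cause of this imbalance was not tested. Beside Mapk9, Ube2b and Wdr13, the TGF-β2 transcripts were Rab21, Atp6v1f, Nxpe2, Vmn1r62, Psmc2 and Olfr985. Each transcript of this paragraph passed the filter only through the group with more detections, so that its difference follows in part from the filter. Rab21 is a small GTPase of early endosomes and integrin traffic, and Atp6v1f is a subunit of the proton pump that acidifies endosomes. Rab21 differed by 0.63 ± 0.32, and TGF-β2 sample 1 alone was far above control (6.76, against 4.71 to 5.18 in control). Atp6v1f differed by 0.34 ± 0.25 and Psmc2, an ATPase of the proteasome, by 0.29 ± 0.25, and control sample 2 lay above all TGF-β2 arrays for the former and within their range for the latter. Nxpe2, Vmn1r62 and Olfr985 were detected on 0 control arrays, and the lower bounds of their observed folds were 1.06, 1.04 and 1.05. These bounds carry no error. The confidence intervals of the fitted differences included 0, at -0.33 to 0.99 for Nxpe2, -0.15 to 0.76 for Vmn1r62 and -0.22 to 0.72 for Olfr985. Nxpe2 differed by 0.79 on chip 1 and -0.14 on chip 2, and its control sample 1 (5.39) lay above TGF-β2 samples 1 to 3. The transcript of the control group was Narf, a protein that binds prelamin A, with a difference of -0.45 ± 0.34 that was -0.12 without control sample 1.

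**Figure D2:**
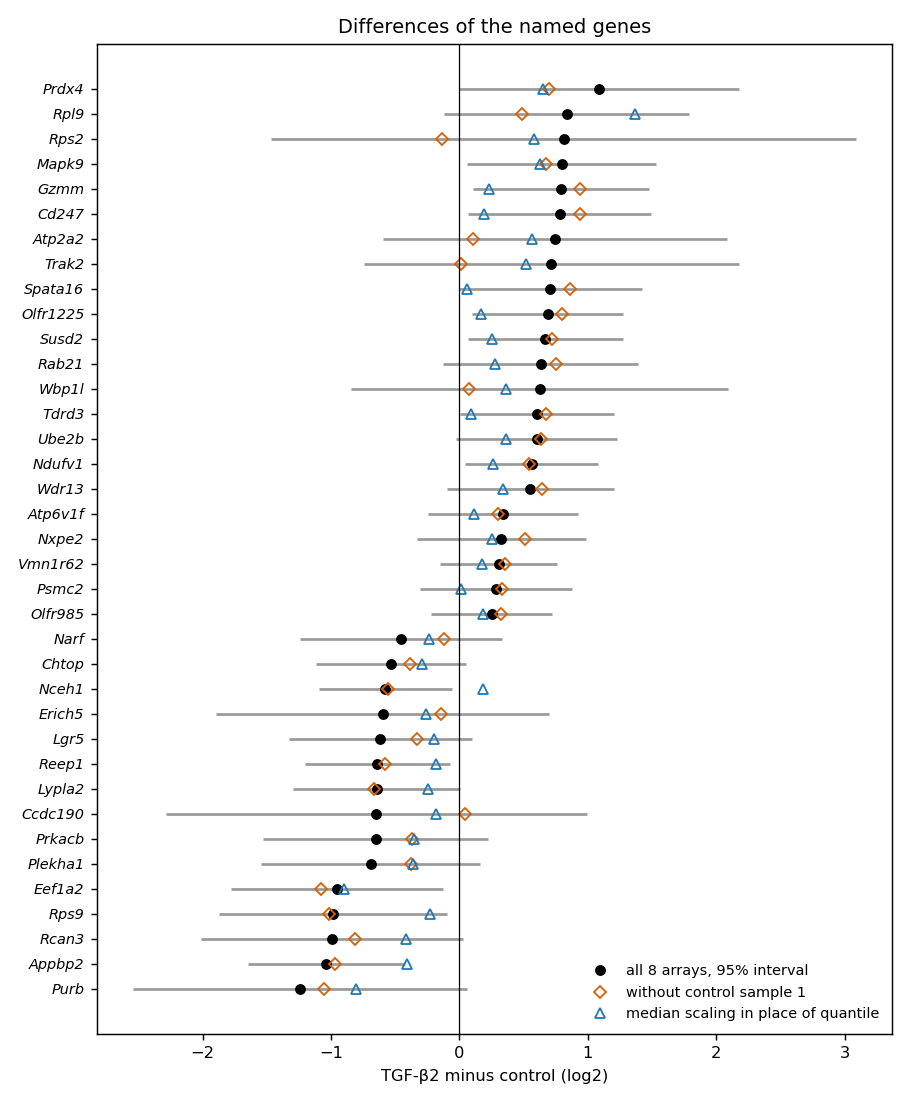
Log2 difference TGF-β2 minus control of the named transcripts (horizontal axis), with 95% confidence intervals from the 8 arrays as grey lines, the difference without control sample 1 as diamonds and the difference with median scaling as triangles. The points run from -1.24 for Purb to 1.09 for Prdx4, and the diamonds of Rps2 and Ccdc190 lie on the other side of 0.

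The transcripts seen on all 8 arrays are those with the most signal, and they gave no call either. There were 73 such probes, with a median difference of 0.00, 36 positive and 34 negative differences, and 0 at an unadjusted p under 0.05. The confidence interval of 23 of them lay within a 2-fold change. The bead-to-bead error of these probes was a median 7.58% of the intensity, or 0.10 on the log2 scale, while the median SD between arrays of a group was 0.57. In 71 of 73 the SD between arrays was above the bead error. Rpl23, a protein of the large ribosomal subunit, had the brightest probe on every array, so that quantile normalization set it to 13.39 on all of them and left no difference to measure. With median scaling this probe differed by -0.22, and with the values normalized by the authors by -0.52. A second Rpl23 probe, also present on all arrays, differed by 0.02 ± 0.21, and by 0.34 with median scaling.

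The 5 most positive differences among named transcripts seen on all arrays were those of Rpl9 (0.84 ± 0.41), Rps2 (0.81 ± 0.97), Atp2a2 (0.74 ± 0.57), Trak2 (0.72 ± 0.62) and Wbp1l (0.63 ± 0.62). Control sample 1 was the lowest of the 8 arrays for each of these. Rps2, a small subunit ribosomal protein, had 5.47, 8.20, 10.51 and 8.67 in control samples 1 to 4 and 8.14, 9.10, 9.75 and 9.10 in TGF-β2 samples 1 to 4. Without control sample 1 the differences were 0.49 for Rpl9, -0.14 for Rps2, 0.11 for Atp2a2, 0.01 for Trak2 and 0.07 for Wbp1l. Rpl9, another protein of the large ribosomal subunit, thus kept the largest of these differences.

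The most negative difference among them beside Purb was that of 1 Rcan3 probe (-0.99), whose other probe was positive (0.19). It was followed by those of Plekha1 (-0.69 ± 0.36), Prkacb (-0.65 ± 0.37), Ccdc190 (-0.65 ± 0.70) and Erich5 (-0.60 ± 0.55). Control sample 1 was the highest of the 8 arrays for each of these 4. Prkacb is a catalytic subunit of protein kinase A, with 9.75, 9.02, 8.06 and 8.73 in control samples 1 to 4 and 8.62, 7.95, 8.40 and 7.99 in TGF-β2 samples 1 to 4. Without control sample 1 the difference of Prkacb was -0.37, that of Plekha1 -0.38, that of Erich5 -0.14 and that of Ccdc190 0.04.

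Cardiomyocyte transcripts were carried by both groups. The atrial myosin light chain Myl4 was detected on all 8 arrays and differed by -0.01 ± 0.31, or by 0.19 without control sample 1 and 0.29 with median scaling, and the atrial chain Myl7 was detected on 2 arrays of each group. Nppa, the atrial natriuretic peptide gene, was detected on 0 arrays. Of 26 genes of the sarcomere and Z-disc 7 were detected and 3 were tested, and of 22 genes of calcium handling and ion channels 6 were detected and 2 were tested. Atp2a2, which pumps calcium into the sarcoplasmic reticulum, had 6.13, 8.29, 8.90 and 8.81 in control samples 1 to 4 and 8.86, 8.61, 8.86 and 8.78 in TGF-β2 samples 1 to 4, and a second probe differed by 0.82 ± 0.67, or by 0.17 without control sample 1. With the exception of control sample 1 the arrays lay close together for the first of these probes. For the second, control sample 3 was low as well (6.61).

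Among cardiac transcription regulators, 9 of 25 genes were detected and 7 probes were tested, 4 with a positive and 3 with a negative difference. Myocd, the coactivator of serum response factor in heart and smooth muscle, had 5.13, 8.05, 8.29 and 7.42 in control samples 1 to 4 and 8.15, 7.97, 7.95 and 8.08 in TGF-β2 samples 1 to 4. The TGF-β2 values lay within those of control samples 2 to 4, and the difference of 0.82 ± 0.56 was 0.18 without control sample 1. Its other 2 probes were detected on 0 arrays. Lbh, a transcription cofactor of heart and limb development, differed by -0.51 ± 0.41 with its brighter probe and by -0.44 ± 0.86 with the other, and without control sample 1 these were -0.28 and -1.07.

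**Figure D3:**
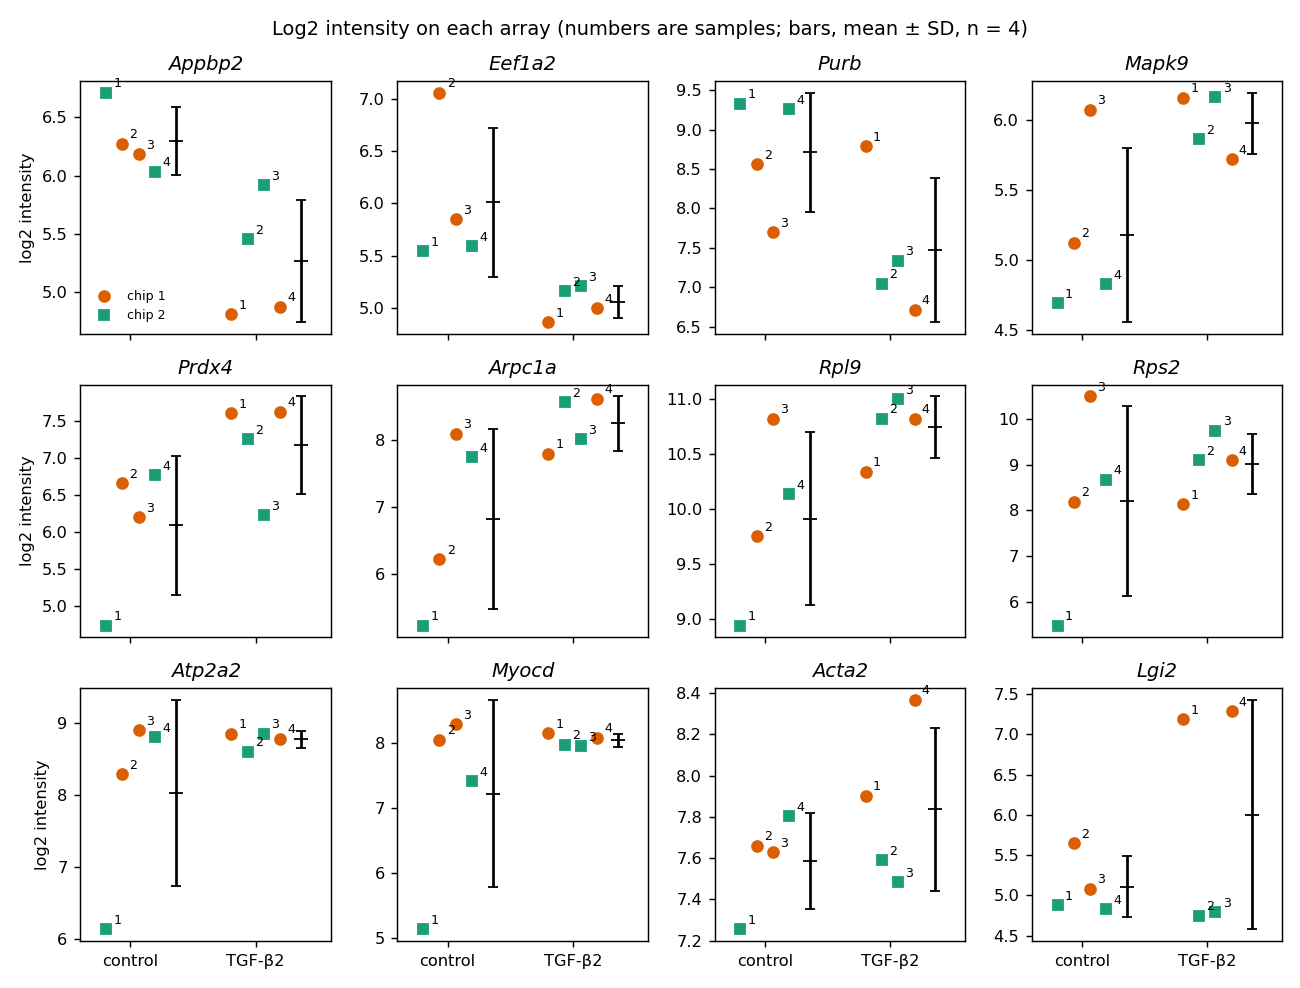
Log2 intensity (vertical axes, scaled to each gene) of 12 transcripts on each array of the control and TGF-β2 groups. Points carry the sample number, colour and shape give the chip, and bars give the mean ± SD. Control sample 1 is far below the other arrays for Arpc1a, Rps2, Atp2a2 and Myocd, and TGF-β2 samples 1 and 4 are far above the others for Lgi2.

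Among markers of other cells, 23.1% of fibroblast, 12.5% of smooth muscle and 11.1% of leucocyte genes were detected on at least 1 array. For all named genes the share was 15.1% (2513 of 16593). The fibroblast share lay above it and the other shares below, in lists that are short. Of 9 endothelial and 5 erythroid marker genes 0 were detected. Of 9 leucocyte markers, Cd14 was detected on 1 control array, and of 13 fibroblast markers 3 were detected (Dcn, Mfap4 and Ddr2), each on at most 1 array of a group, which was 5.77 ± 3.85% of them per TGF-β2 array and 1.92 ± 3.85% per control array. Acta2 was the smooth muscle marker detected out of 8.

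Messenger RNAs of ribosomal proteins had the highest mean shares detected per array of the 30 gene lists. Of 24 small subunit genes 22 were detected, on average 79.2 ± 14.4% of them per TGF-β2 array and 76.0 ± 23.2% per control array. Of 38 large subunit genes 26 were detected, 53.9 ± 14.0% per TGF-β2 array and 48.0 ± 18.3% per control array. Of 25 tested large subunit probes 17 were positive and 7 negative (median 0.14), and of 24 small subunit probes 15 were positive and 8 negative (median 0.21), beside a median of 0.07 over all probes. At an unadjusted p under 0.05 a single ribosomal probe was found, that of Rps9 (-0.99 ± 0.38), and a second Rps9 probe differed by 0.16 ± 0.58, or by -0.17 without control sample 1. Probe sequences were not used here, and cross-hybridisation between ribosomal protein genes and their many pseudogenes was not tested.

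Detection of the respiratory chain and ATP synthase was higher in TGF-β2 exosomes on chip 2 and lower on chip 1, as it was for all named genes (3.85 and -2.3 percentage points), and it was not tested. For ATP synthase the differences were 56.2 and -18.8 points, for complex I 22.1 and -2.94, and for complexes II to IV 32.3 and -12.9. ATP synthase genes were detected at 42.2 ± 27.7% per TGF-β2 array and 23.4 ± 19.3% per control array, out of 16 genes. For complex I the values were 18.4 ± 9.7% and 8.8 ± 6.3% of 34 genes, and for complexes II to IV 27.4 ± 17.6% and 17.7 ± 12.5% of 31 genes. The values of single arrays overlapped between the groups in each of these lists, and control sample 1 was low, at 12.5%, 0% and 3.23%. Of the 25 tested probes 20 were positive, with medians of 0.29, 0.25 and 0.20 for ATP synthase, complex I and complexes II to IV. Over all tested probes 58.3% were positive with a median of 0.07, and 48.9% were positive without control sample 1. Uqcr10, a small subunit of complex III, differed by 0.90 ± 0.51, and by 0.40 without control sample 1. A second Uqcr10 probe differed by 0.065 ± 0.627, and by -0.43 without control sample 1.

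All 3 tested glycolysis probes were positive, with a list median of -0.09 on chip 1 and 0.99 on chip 2. The largest difference was that of Tpi1, triosephosphate isomerase (0.73 ± 0.34, unadjusted p = 0.0692), which was 0.10 with median scaling. Of the 6 actin and Arp2/3 probes 5 were positive. Arpc1a, a subunit of the Arp2/3 complex that nucleates branched actin, had the largest difference of any tested probe, 1.42 ± 0.64 (unadjusted p = 0.0627). Intensities (log2) were 5.24, 6.23, 8.09 and 7.74 in control samples 1 to 4 and 7.79, 8.56, 8.003 and 8.61 in TGF-β2 samples 1 to 4. Control samples 1 and 2 were low, control sample 3 lay within the TGF-β2 range, and the difference was 0.84 without control sample 1. The other 2 probes of Arpc1a differed by 0.69 ± 0.60 and 0.25 ± 0.70, or by 0.41 and -0.35 without control sample 1. Of 30 genes of exosomes and multivesicular bodies 13 were detected and 4 were tested. Hspa8, a chaperone found in exosomes, was present on all 8 arrays and differed by 0.32 ± 0.52, or by -0.25 without control sample 1.

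The difference between the groups went different ways on the chips. Over all tested probes the median difference was -0.11 on chip 1 and 0.26 on chip 2. Only 155 probes were higher in TGF-β2 exosomes on both chips and 101 were lower on both. The interaction of treatment and chip passed an adjusted p under 0.05 for 0 of 829 probes (0%, lowest adjusted p 0.121), while at an unadjusted p under 0.05 it was more positive on chip 2 for 141 probes (17%) and more positive on chip 1 for 35 probes (4.22%). With median scaling in place of quantile normalization the interaction was called for 280 probes, all more positive on chip 2. By its layout this interaction compares samples 2 and 3 with samples 1 and 4 of both groups, which also differed in the number of detected probes, and the chip, the sample and the amount of signal cannot be told apart.

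**Figure D4:**
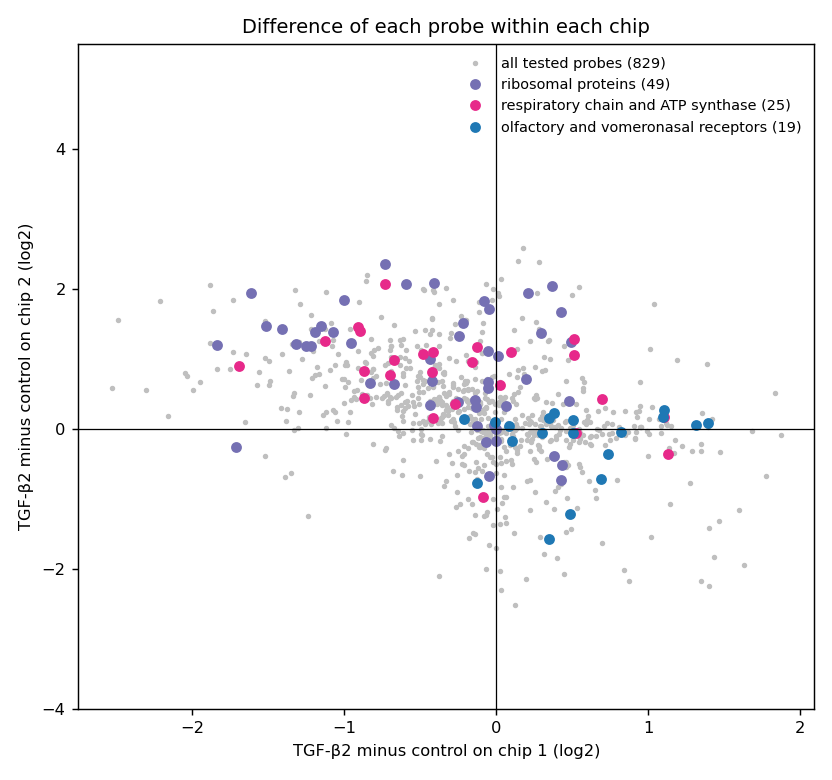
Log2 difference TGF-β2 minus control of each tested probe on chip 1 (horizontal axis) and on chip 2 (vertical axis). Ribosomal and respiratory probes lie mostly above 0 on chip 2, where all probes have a median of 0.26, and olfactory receptor probes extend to the right, to 1.40 on chip 1.

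Ribosomal and respiratory transcripts had medians of opposite sign on the chips, as did all tested probes (-0.11 and 0.26). So did translation factors (-0.36 and 0.31), chaperones (-0.34 and 0.78) and the actin and Arp2/3 list (-0.15 and 1.06). Ubiquitin-conjugating enzymes (0.60 and 0.25) and olfactory and vomeronasal receptors (0.49 and 0.04) were positive on both chips. Small subunit ribosomal probes had a median of -0.32 on chip 1 and 1.15 on chip 2, and large subunit probes -0.13 and 1.04. For 7 of 24 and 6 of 25 of them the interaction had an unadjusted p under 0.05, all more positive on chip 2, beside 17% of all probes. ATP synthase probes had medians of -0.45 and 0.90, and 5 of 8 were more positive on chip 2 and 1 on chip 1. Complexes II to IV had medians of -0.41 and 1.07, with 6 of 10 more positive on chip 2. Complex I had medians of -0.155 and 0.429, with 1 of 7 more positive on chip 2. The ribosomal and respiratory medians kept their signs on each chip with median scaling and with the values normalized by the authors. They also kept them without background correction and with an offset of 50. Atp5j2, a subunit of the ATP synthase membrane part, had 4.68, 6.13, 6.06 and 5.30 in control samples 1 to 4 and 5.02, 7.35, 6.77 and 5.71 in TGF-β2 samples 1 to 4. As with Smad5, samples 2 and 3 were the brightest in both groups.

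**Figure D5:**
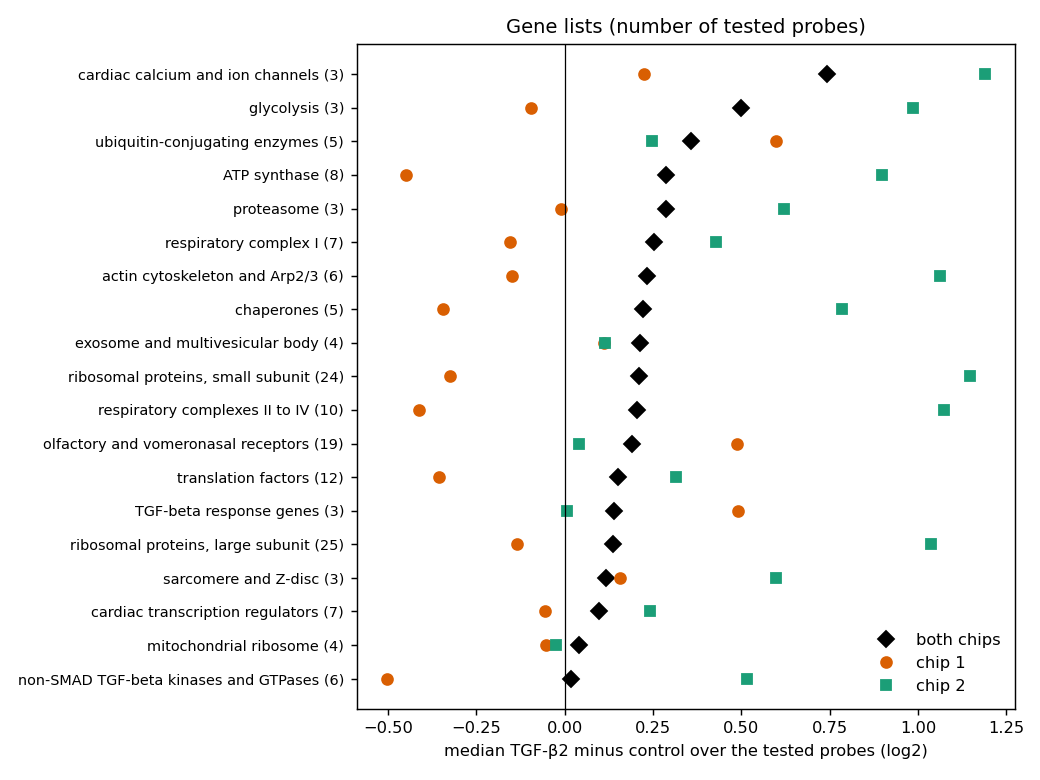
Median log2 difference TGF-β2 minus control (horizontal axis) over the tested probes of each gene list with at least 3 of them, on both chips (diamonds), chip 1 (circles) and chip 2 (squares), with the number of probes in brackets. The diamonds lie between 0.02 and 0.74. For ATP synthase, ribosomal proteins and complexes II to IV the circles lie below 0 and the squares above. The same holds for other lists such as translation factors and chaperones.

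A further set of transcripts had its highest values on TGF-β2 samples 1 and 4. For 75 probes (9.05% of those tested) both of these arrays lay above the other 6, with means more than 1 log2 unit apart for 40 of them, compared with 52 probes for TGF-β2 samples 2 and 3, 35 for control samples 2 and 3 and 35 for control samples 1 and 4. With median scaling the numbers were 6, 84, 99 and 3, so that this set depended on the normalization. It included most of the higher transcripts with the smallest p, namely Olfr1225, Gzmm, Susd2, Cd247, Ndufv1, Tdrd3, Prdx4, Spata16 and Ube2b. Lgi2, a secreted protein of neurons, showed the largest gap. Its log2 intensity was 4.88, 5.64, 5.08 and 4.83 in control samples 1 to 4 and 7.19, 4.74, 4.79 and 7.29 in TGF-β2 samples 1 to 4. Its difference was 1.88 on chip 1 and -0.08 on chip 2.

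That set held genes known from lymphocytes and from the olfactory epithelium, chosen for description after their values were seen. Gzmm, a granzyme of natural killer and T cells, differed by 0.79 ± 0.29 (1.36 on chip 1 and 0.23 on chip 2), and Cd247, the ζ chain of the T cell receptor, by 0.78 ± 0.30 (1.42 and 0.14). The fixed leucocyte markers were at 0 detected arrays in TGF-β2 exosomes, as given above. With median scaling the differences of Gzmm and Cd247 were 0.23 and 0.19. Of 1198 olfactory and vomeronasal receptor genes, which have their known role in the nose, 107 were detected on at least 1 array and 19 were tested. A mean of 1.96 ± 0.40% of them were detected per TGF-β2 array and 1.86 ± 0.84% per control array, beside 4.74% and 3.96% of all named genes. Of the 19 tested probes 13 were positive (median 0.19, 0.49 on chip 1 and 0.04 on chip 2), and 9 of the 19 were among the 75 probes, which were 9.05% of all tested. With median scaling their median was -0.02 and 1 of them was in the corresponding set. The part of background signal in these values was not tested.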

How the data were processed

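Exosome RNA of 4 TGF-β2-treated and 4 control cultures was measured. The members, gene lists and tests were chosen with earlier results of these data known. The authors deposited, per array, the mean bead intensity of each probe with background subtracted and without normalization between arrays, a detection p-value and, as scores of precision, the bead standard error and the number of beads (array medians of 37 to 41 beads). A separate deposited table holds intensity normalized by the authors with cubic splines and served for 1 alternative setting. GenomeStudio was named in the submitters' processing notes, its version is not given in the sources used here, and the values are per probe without coordinates.

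Intensities of the 8 arrays were background-corrected by normexp from the detection p-values, quantile-normalized with an offset of 16 and expressed as log2 (neqc in limma 3.58.1, R 4.3.3). Of the probes, 23977 carried 1 gene symbol, 0 several and 1719 none in the platform annotation, and 23961 were matched by Entrez identifier, which changed 0 symbols. Where the detection p-value lay under 0.01 on 3 or more of the 8 arrays, a probe was tested by limma with group and chip as terms, two-sided, with Benjamini-Hochberg adjustment over all 829 probes and a threshold of 0.05, and in a further fit for the interaction. Intervals are at 95%. The number of arrays limits the precision. The procedure was tested on simulated data. Plots used matplotlib 3.10.9 in Python 3.11.15.

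Named were, for want of adjusted calls, the 10 named genes with the smallest p in each direction, the 5 most positive and 5 most negative among probes on all 8 arrays, probes whose detected arrays differed by at least 3 between groups, the 3 most widely detected members of each of 30 lists, and a fixed set of TGF-β, exosome and cardiac genes. Among probes on all 8 arrays, a gene with several probes was ranked by its most positive one, so that Rcan3 was not among these 5 most negative. Arpc1a is a list member. Smad5, Lgi2, Gzmm and Cd247 were also singled out by the chip comparison after their values were seen. A probe undetected on all arrays of a group has a bound, with each array's lowest detected signal in place of lower values. Same-numbered samples of the groups had correlations of their deviations, after normalization, of 0.246, 0.057, 0.44 and -0.17 for numbers 1 to 4. On this ground the numbers were not taken as pairs, although samples 2 and 3 of both groups had the most detected probes. Alternatives were other chip terms, a block for the replicate number (statmod 1.5.0 for random blocks), array weights, other scaling, background, offset and filters, all 12 arrays, each chip alone and each array left out.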

Additional observations from a re-analysis of the deposited data

Results flagged for a closer look

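The number of detected probes was lower in TGF-β2 than in control exosomes for all arrays of chip 1 (-445) and higher for all arrays of chip 2 (752.5). The difference between the chips was not tested for this number.

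Of 76 groups of 4 values (37 named probes and the detected probes, in each group), 9 had an array farther from the others than Dixon's 95% limit for 4 values allows. That limit is passed by about 1 in 20 groups of normal values that were not selected. The 37 probes were chosen from these same data, so that the count cannot be set against this rate. In TGF-β2 exosomes, Chtop was low on sample 1 (7.10, against 7.76 to 7.83 on the others). Plekha1 was high on sample 1 (7.41, against 6.66 to 6.70) and Wdr13 on sample 4 (6.24, against 5.15 to 5.24). In control exosomes, sample 1 was low for Trak2 (6.01, against 8.75 to 9.16) and high for Narf (6.49, against 5.24 to 5.42) and Wdr13 (5.01, against 4.87 to 4.89). Sample 2 was high for Atp6v1f (5.95, against 4.84 to 5.01) and Psmc2 (5.78, against 5.04 to 5.09), and sample 3 was low for Lypla2 (5.198, against 6.10 to 6.29).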

How the results depend on the processing

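The count of 0 called transcripts held under all 22 alternatives, with 0 to 979 probes at an unadjusted p under 0.05 (0 of 73 on all 8 arrays, 979 of 25696 without a filter). With a replicate block in place of the chip, 0 probes were called (15 at an unadjusted p under 0.05), the mean difference in detected probes stayed at 153.8 (exact sign-flip p = 0.25), and no call changed. The interaction count of 0 became 280 with median scaling, 1 without background correction and 6 without a filter. The difference in detected probes was -15.75 at a detection p under 0.05, -445 within chip 1, and -50.17 to 290.9 with 1 array left out, negative without TGF-β2 sample 3. Group lists held 371 (TGF-β2), 234 (control) and 138 (shared) probes at a detection p under 0.05, and 335, 302 and 221 when 3 of 4 arrays were enough. With 1 array left out they held 179 to 249, 92 to 262 and 73 to 149 probes. Of the 96 probes of named genes and list examples with a difference other than 0, the sign turned for 35 within chip 1, 14 within chip 2, 13 with median scaling, 11 with array weights, 5 each with the spline values and without background correction, 3 to 22 with 1 array left out (22 without control sample 1) and 0 under the other settings. Among the genes with the smallest p, those present on all arrays and those that differed in detection, it turned for Nceh1 with median scaling (0.19), within chip 1 for Rps2 (-0.73), Trak2 (-0.082), Erich5 (0.058), Ccdc190 (0.87) and Narf (0.065), and within chip 2 for Nxpe2 (-0.14). With 1 array left out Rps2 ran from -0.14 to 1.58 and Ccdc190 from -1.081 to 0.041. The cause of these changes was not tested. The share of positive differences was 58.3% over all arrays, 39.8% within chip 1, 66.3% within chip 2 and 48.9% without control sample 1.

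The measurement is limited by signal close to background, since 1.8 to 5.86% of probes were detected per array, and by 4 arrays in each group with 1 that stands apart. Transcripts near the detection limit have folds pulled toward 1 by the offset of 16, and their differences depend on the normalization.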

Other observations

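Without control sample 1 the transcripts with the smallest unadjusted p were mostly lower in TGF-β2 exosomes, 31 of 46. They were led by Adarb1, an adenosine deaminase that edits RNA (-1.31 ± 0.26), G3bp1, a protein of stress granules (-1.08 ± 0.24), Plekha2 (-1.05 ± 0.23), Trim2, a ubiquitin ligase (-1.66 ± 0.42), and Scamp1, a carrier membrane protein (-1.14 ± 0.30). The lowest adjusted p in that fit was 0.764. Pik3r1, by its second probe, differed by -1.79 ± 0.49 there. These genes were chosen after their values were seen.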
